A study of Mus musculus with 4 samples.

Results

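The genes described here make and regulate the machinery that licenses replication origins. They are the helicase subunit genes Mcm2, Mcm3, Mcm4, Mcm5, Mcm6 and Mcm7, the loading factors Cdc6 and Cdt1, the sliding clamp gene Pcna, and E2f1, a transcription factor that drives genes of this kind. Their sites were taken from the gene annotation alone. A site was a member if it overlapped the body of one of the 10 genes or lay within 10 kb of the start (TSS) of any of its annotated transcripts, and 24 of the 82325 sites in the table were members. ATAC-Seq, which maps open chromatin by where Tn5 transposase can insert, had been run on 4 libraries of immortalized mouse embryonic fibroblasts (imMEFs) with the strain background C57bl6. The WT group was 2 lines labelled HAT1 WT (lines imMEF643CT and imMEF78T, replicates 1 and 2), and the KO group was 2 lines labelled HAT1 KO (lines imMEF41T and imMEF643BT, replicates 1 and 2). HAT1 is the acetyltransferase of newly made histone H4. All 4 lines came from primary MEFs transformed with a plasmid that carries SV40 T antigen, so both genotypes share it, and all were grown in DMEM with serum. Each library is 1 line, and the numbers 1 and 2 follow accession order and pair nothing.

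As background, an origin is licensed when the origin recognition complex, CDC6 and CDT1 load the ring of MCM proteins onto DNA in G1. The ring becomes the core of the replicative helicase in S phase, and PCNA then holds polymerases and chromatin assembly factors on the new strands, where HAT1-acetylated histones are deposited. Most of these genes are switched on at the G1/S boundary by E2F factors, which the retinoblastoma proteins hold back in resting cells. Large T antigen binds the retinoblastoma proteins and frees E2F, so cells immortalized in this way are known to express licensing genes. ATAC-Seq over a population averages all cells, so a larger share of open copies and a more open state of each copy cannot be told apart.

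The promoters of these genes share sequence features that the choice of members did not use. RefSeq promoter windows of 300 bases (GRCm38.p6, from 250 bases before to 50 after the TSS) were found for 9 of the 10 genes, all but Mcm4, with 10 windows because Mcm7 has 2. Both strands were searched for the E2F octamer, written as TTTCCCGC, TTTCGCGC, TTTGCCGC or TTTGGCGC. It occurred in the windows of 6 of the 9 genes, against 2.26% of the 32851 windows in the RefSeq table. The 6 were Mcm3, Mcm5, Mcm6, Mcm7, Cdc6 and Cdt1, and Mcm2, Pcna and E2f1 had no match in this window. The CCAAT box, a frequent promoter element, was in the windows of 6 genes (37.4% of all windows). The GC box GGGCGG was in those of 7 (35.7% of all windows), and the TTTGAA letters of the cell cycle homology region (CHR) in that of Mcm2 alone (17.9% of all windows). The median window of these genes had 59.5% GC and 24.5 CpG dinucleotides, against 52.7% and 7 over all windows. Among the 46 other replication genes with a window, 18 held the octamer, 26 the CCAAT box, 35 the GC box and 9 the CHR letters, and the difference from the 9 genes was not tested. A match to such letters is a description and does not show that a factor was bound.

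Stretches from 6 of the genes are given here, 5′ to 3′ on the strand of the gene and ending just before the RefSeq TSS unless stated. Capitals mark E2F octamers, CCAAT boxes and the CHR letters on either strand. Mcm5 and Mcm6 each had 2 octamers on opposite strands that overlap by 4 bases, so that they read as a single run of capitals. Mcm6 held a further octamer nearer the TSS. The stretch for Mcm2 shows a promoter of the same family without the octamer. That for Pcna shows a promoter where the table listed no site. It holds none of the marked letters, but it stops short of a CCAAT box 87 bases before the RefSeq TSS. Mcm7, whose octamers lie in annotated exons, is not shown.
Mcm5, chr8:75109329-75109508, plus strand: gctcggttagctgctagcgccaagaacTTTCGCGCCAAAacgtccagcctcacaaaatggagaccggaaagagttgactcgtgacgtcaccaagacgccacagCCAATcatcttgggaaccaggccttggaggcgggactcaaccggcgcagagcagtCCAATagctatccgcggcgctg
Mcm6, chr1:128359706-128359835, minus strand: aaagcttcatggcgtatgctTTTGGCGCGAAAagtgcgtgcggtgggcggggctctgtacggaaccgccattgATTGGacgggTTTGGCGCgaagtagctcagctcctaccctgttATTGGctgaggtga
Mcm3, chr1:20820313-20820442, minus strand: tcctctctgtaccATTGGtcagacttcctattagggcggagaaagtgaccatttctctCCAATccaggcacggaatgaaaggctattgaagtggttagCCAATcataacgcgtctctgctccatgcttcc
Mcm2, chr6:88898781-88898970, minus strand: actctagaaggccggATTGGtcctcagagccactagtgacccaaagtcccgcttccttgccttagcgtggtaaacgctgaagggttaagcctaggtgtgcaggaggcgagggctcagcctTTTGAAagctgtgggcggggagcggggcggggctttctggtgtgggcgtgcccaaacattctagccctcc
Cdc6, chr11:98907991-98908150, plus strand: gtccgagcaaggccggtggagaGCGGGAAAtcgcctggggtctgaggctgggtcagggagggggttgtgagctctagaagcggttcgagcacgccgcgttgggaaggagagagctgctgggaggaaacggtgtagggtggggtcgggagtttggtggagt
Pcna, chr2:132253315-132253430, minus strand, the part before the GENCODE TSS: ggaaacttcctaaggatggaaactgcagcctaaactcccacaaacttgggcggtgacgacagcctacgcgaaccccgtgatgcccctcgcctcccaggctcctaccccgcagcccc

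In Mcm3 and Cdt1 the octamers lay just inside the transcript. The stretches of 30 bases that hold them, from 18 bases past the TSS in Mcm3 and from 20 bases past it in Cdt1, are as follows.
Mcm3, chr1:20820265-20820294, minus strand: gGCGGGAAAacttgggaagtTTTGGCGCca
Cdt1, chr8:122568035-122568064, plus strand: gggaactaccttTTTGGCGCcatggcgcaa

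Octamers were also counted in the sites themselves. In the 300 bases around the centre of each site, the octamer was found in 6 of the 8 main promoter sites of these genes (all but those of Mcm7 and Cdt1, and including those of Mcm2 and E2f1, whose RefSeq windows had none), against 3.80% of the 12286 main promoter sites of protein-coding genes and 1.24% of all sites. Among other replication genes it was found at 15 of 59 main promoter sites. Beyond the promoters, a single member site held it, 8.2 kb upstream of Mcm2 and inside Tpra1. In Cdt1 and Mcm7 the sites were long (1329 and 1699 bp), and the octamers of their RefSeq windows fell outside the central 300 bases.

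**Figure D1:**
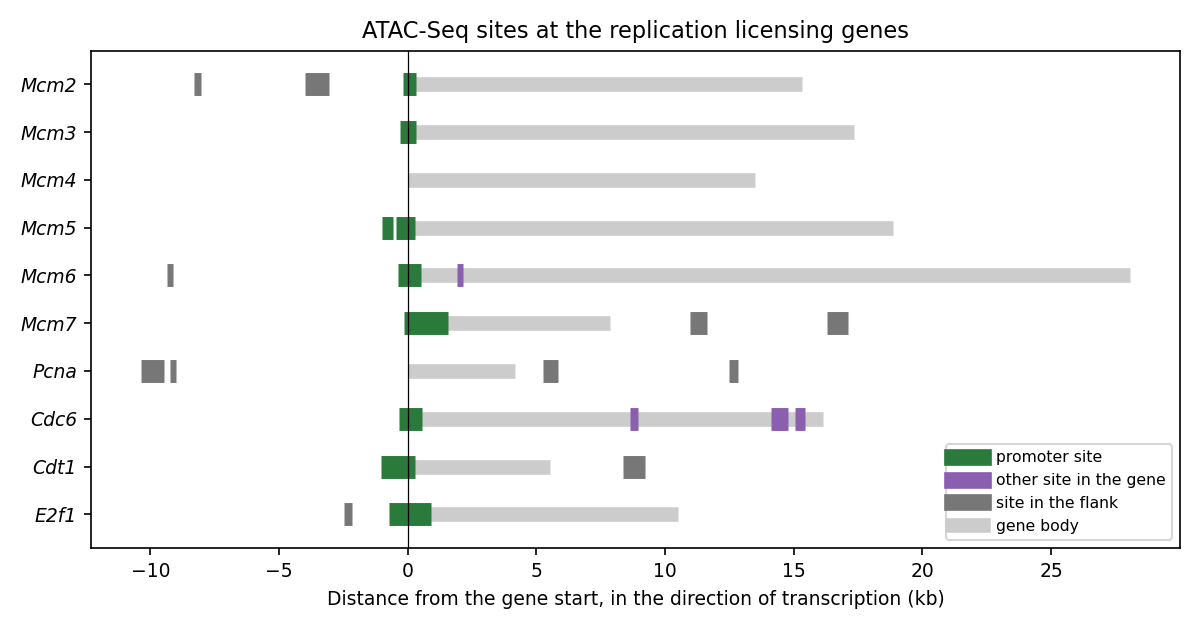
Position of every site on the 10 genes, with the distance from the gene start in kb on the horizontal axis and 1 gene per row, each drawn in its direction of transcription. Green bars are sites within 1 kb of a protein-coding TSS, purple bars other sites in the gene, grey bars flanking sites and pale bars gene bodies. Mcm4 has no site and Pcna has 4 flanking sites with none at its start.

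Of the 10 genes, 8 had a site at their start, as the map of sites shows. The 24 sites comprised 9 within 1 kb of a protein-coding TSS of a member (8 main promoter sites, the strongest of each gene, and a weaker one at Mcm5), 4 others inside gene bodies and 11 in the flanks. Cdc6 and Pcna had 4 sites each, Mcm2, Mcm6 and Mcm7 had 3, Mcm5, Cdt1 and E2f1 had 2, Mcm3 had 1 and Mcm4 had 0. Of the flanking sites, 6 lay over the TSS of a neighbour (Tpra1, Zfp113, Cops6, Tmem230, Cds2 and Aprt).

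No site was listed at the start of Mcm4 or Pcna, although both genes are essential for replication. Mcm4, on chromosome 16 from 15623897 to 15637400 (mm10, minus strand), starts 466 bases from Prkdc, which is transcribed away from it. The nearest listed sites were 13.5 kb upstream, inside Prkdc, and 42.6 kb downstream, at Ube2v2. Pcna, on chromosome 2 from 132249162 to 132253314 (minus strand), starts 43 bases from the antisense transcript AV099323. Its nearest sites were 9.03 kb upstream and 5.25 kb downstream, the latter at the Tmem230 start. All 59 other replication genes examined had a site within 1 kb of a TSS, as did 61.7% of 21853 protein-coding genes. The table numbers its sites from 1 to 82325 without a gap. A region that is not listed has no value here, so the accessibility of these starts is not known from the table.

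The table holds read counts scaled per library and rounded, called normalized counts here. Library totals ran from 8008069 to 8516263 and medians from 51 to 53. The pattern of whole numbers that rounding leaves in the table shows that 1 read was worth 0.714 to 0.849 normalized counts in the WT libraries, 1.08 in KO replicate 1 and 1.50 in KO replicate 2, or roughly 9430000 and 11400000 reads in sites in WT replicates 1 and 2 and 7830000 and 5680000 in KO replicates 1 and 2. KO replicate 2 was thus the shallowest library. For the main promoter sites, the counting error that follows is 3.09% to 7.28% of the value. All 10 fibroblast markers had a main promoter site, with medians of 219.5 to 267 normalized counts in the 4 libraries. One was also listed for 3 of 5 epithelial, 3 of 4 endothelial and 2 of 4 neural markers, with medians over the listed sites of 29 to 140 in the 4 libraries. Of 4 blood markers 1 had a site, Cd68, with 195 and 157 in WT and 215 and 152 in KO. Levels of single markers overlapped between types. Fibroblast Thy1 had 35 and 150 in WT and 61 and 69 in KO, and neural Tubb3 had 172 and 166 in WT and 181 and 167 in KO. None was listed for Ptprc, Spi1, Vav1, Cldn4, Grhl2, Tie1, Neurod1 or Sox10. The Hat1 promoter had 390 and 384 normalized counts in WT and 438 and 368 in KO, which is no check of the genotype, since the labels do not say which part of the gene was deleted.

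The promoters of the loading factors were open in all 4 lines. CDC6 is the ATPase that recruits the MCM ring to the origin recognition complex. Its main promoter site (chromosome 11, 98907459 to 98908370, over the TSS and exon and intron sequence) had 367 and 339 normalized counts in WT and 351 and 451 in KO. KO replicate 1 lay between the WT libraries and KO replicate 2 stood above both, so the genotypes overlapped. CDT1 brings the MCM ring to the origin and is removed after licensing by geminin and by degradation. The Cdt1 promoter site (chromosome 8, 122566967 to 122568295) had 742 and 748 in WT and 816 and 856 in KO. Both KO lines stood above both WT lines there, and the difference was small, with a log2 fold change (KO against WT) of 0.17 (SE 0.08, an unadjusted limma p of 0.0741). For Cdc6 the log2 fold change was 0.17 (SE 0.17).

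Among the helicase subunits, Mcm7 had the promoter site with the highest total signal, though not per kb, and the smallest p. Its main promoter site (chromosome 5, 138170862 to 138172560) runs over the first part of the gene and also covers the TSS of Ap4m1, a subunit gene of an adaptor complex, which starts 160 bases away on the other strand. It had 734 and 660 normalized counts in WT and 824 and 904 in KO. Both KO lines exceeded both WT lines, and the log2 fold change was 0.31 (SE 0.10, 95% interval 0.08 to 0.54), with an unadjusted limma p of 0.0162. With quantile normalization the log2 fold change was 0.08 with an unadjusted p of 0.389. The unadjusted limma p was 0.277 without the intensity trend. It was 0.0424 with equal totals (log2 fold change 0.24) and 0.00784 with centring per chromosome (log2 fold change 0.34). With 1 library left out the log2 fold change ran from 0.23 (without WT replicate 2) to 0.39 (without WT replicate 1). An unadjusted p under 0.05 occurred at 3.13% of all sites and at 4.18% of main promoter sites, and after adjustment over all 82325 sites p was 1 here and at each site of these genes. Which of the 2 genes the signal belonged to cannot be told apart.

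The other helicase promoters had smaller fold changes. Mcm5, whose protein sits at the gate where the ring opens, had 346 and 345 in WT and 360 and 396 in KO at its main site (chromosome 8, 75109121 to 75109837), with both KO lines higher and a log2 fold change of 0.13 (SE 0.14). Mcm2, whose protein forms the other side of that gate and binds histones H3 and H4, had 229 and 190 in WT and 218 and 283 in KO (chromosome 6, 88898444 to 88898967). Mcm6 had 299 and 357 in WT and 342 and 408 in KO (chromosome 1, 128359149 to 128360062). At Mcm2 and Mcm6 KO replicate 2 was the highest library, but KO replicate 1 lay between the WT values. At the Mcm3 promoter (chromosome 1, 20819983 to 20820630) the values were 263 and 233 in WT and 241 and 305 in KO, again with KO replicate 1 between the WT lines. The log2 fold changes of Mcm2, Mcm3 and Mcm6 were 0.25 (SE 0.22), 0.13 (SE 0.19) and 0.19 (SE 0.17), and the 95% interval of each included 0.

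E2f1, the activator of this gene set and itself an E2F target, had 592 and 545 normalized counts in WT and 626 and 606 in KO at its promoter (chromosome 2, 154568978 to 154570615). Both KO lines were above both WT lines, at a log2 fold change of 0.12 (SE 0.10). It was the only one of the 8 main promoters where KO replicate 2 was not the highest library. The intervals of the 8 promoters hold for the deposited scaling only. They carry no uncertainty of the scaling, so they do not bound what could have been missed. The widest, at Mcm2, ran from -0.28 to 0.78 on the log2 scale, and the narrowest, at Cdt1, from -0.02 to 0.35. With quantile normalization the log2 fold change of Cdt1 was -0.06, outside that interval. That of each other main promoter stayed inside its own interval.

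**Figure D2:**
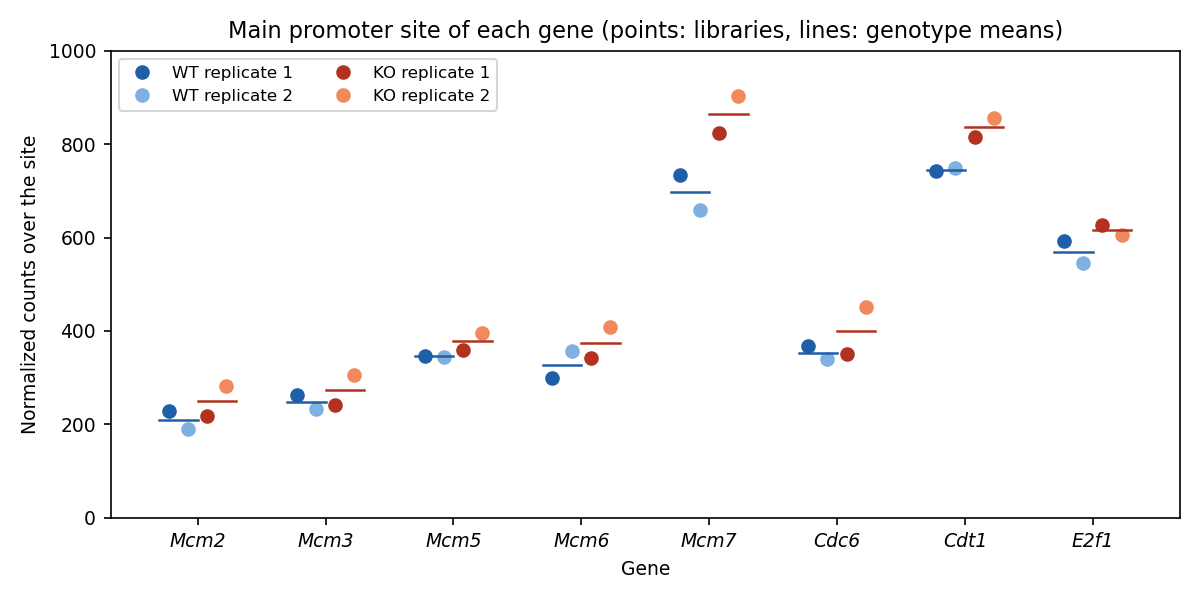
Normalized counts over the main promoter site of 8 genes, on a linear axis from 0, with 1 point per library and a line at the mean of each genotype (n = 2). In the deposited scaling the KO means lie above the WT means at all 8 genes, and the libraries of the genotypes do not overlap at Mcm5, Mcm7, Cdt1 and E2f1.

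Levels between genes were compared per kb of site, since the sites differed in length and a longer site holds more reads. The order of the mean over 4 libraries was Cdt1 (595 ± 41.4 normalized counts per kb, SD, n = 4), Mcm5 (505 ± 33.2), Mcm7 (459 ± 62.5), Mcm2 (439 ± 74.4), Cdc6 (413 ± 55.5), Mcm3 (402 ± 49.8), Mcm6 (385 ± 49.2) and E2f1 (362 ± 21.0). Only Cdt1 stood clear of its neighbour in this order, and from Mcm5 downwards the ranges of neighbouring genes overlapped. All 8 lay in the upper part of the 12286 main promoter sites by this measure, between the 75.5th percentile (E2f1) and the 96.5th (Cdt1). By total signal, which grows with site length, Mcm2 was at the 50.5th percentile, Mcm3 at the 57.7th, and E2f1, Mcm7 and Cdt1 at the 95.0th to 98.8th.

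The second promoter site of Mcm5, centred 778 bases upstream of the gene start (chromosome 8, 75108582 to 75109000), had 138 and 121 in WT and 122 and 141 in KO, with no separation of the lines. Inside Mcm6, a weak intronic site 2.0 kb from the gene start had 59 and 35 in WT and 48 and 69 in KO, again without separation. Its log2 fold change of 0.33 was the largest of the 24, with an SE of 0.41. Upstream of Mcm6 a site 9.2 kb away, inside Dars, had 20 to 25 normalized counts in every library and stood at the 16.6th percentile of all sites by mean level.

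Cdc6 had 3 sites in its body beyond the promoter. An intronic site 8.8 kb from the gene start had 23 and 26 in WT and 17 and 38 in KO. The 2 others overlapped annotated exons and untranslated sequence at 14.4 and 15.2 kb, near the 3′ end of the gene. The first had 91 and 95 in WT and 90 and 98 in KO, and the lines were close to equal. The other had 39 and 42 in WT and 29 and 80 in KO, so the KO lines differed from each other by more (1.43 on the log2 scale) than either did from the WT lines. KO replicate 2 was the highest library at both of the weakest Cdc6 sites, and the genotype difference there did not exceed the spread between the KO lines (log2 fold change 0.06 with SE 0.53, and 0.25 with SE 0.53).

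Flanking sites mostly belonged to neighbouring genes. Next to Mcm2, the Tpra1 promoter site had 405 and 388 in WT and 406 and 396 in KO, and a weaker site inside Tpra1 had 93 and 72 in WT and 83 and 80 in KO. Downstream of Mcm7, the Zfp113 promoter site was higher in both KO lines (293 and 254 in WT, 312 and 340 in KO), at a log2 fold change of 0.25 (SE 0.16). The Cops6 promoter site overlapped, with 180 and 179 in WT and 171 and 215 in KO. Downstream of Cdt1, the site at Aprt had 323 and 242 in WT and 272 and 311 in KO, with both KO values inside the WT range.

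Around Pcna, the Tmem230 promoter site had 228 and 233 in WT and 210 and 256 in KO, so the WT lines lay inside the KO range. The Cds2 promoter site had 397 and 367 in WT and 407 and 441 in KO, with both KO lines higher. Close beside it, a site upstream of Cds2 went the other way, with 66 and 60 in WT and 59 and 45 in KO. A further weak site inside Tmem230 had 31 and 30 in WT and 44 and 33 in KO. At each of the 4 sites near Pcna the 95% interval of the log2 fold change included 0.

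The site 2.3 kb upstream of E2f1 (chromosome 2, 154572066 to 154572377) was lower in both KO lines, with 110 and 98 in WT and 85 and 86 in KO. Its log2 fold change was -0.28 (SE 0.27), opposite in sign to that of the E2f1 promoter. The 3 member sites with a negative log2 fold change were this one, the site upstream of Cds2 and the weaker Tpra1 site.

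**Figure D3:**
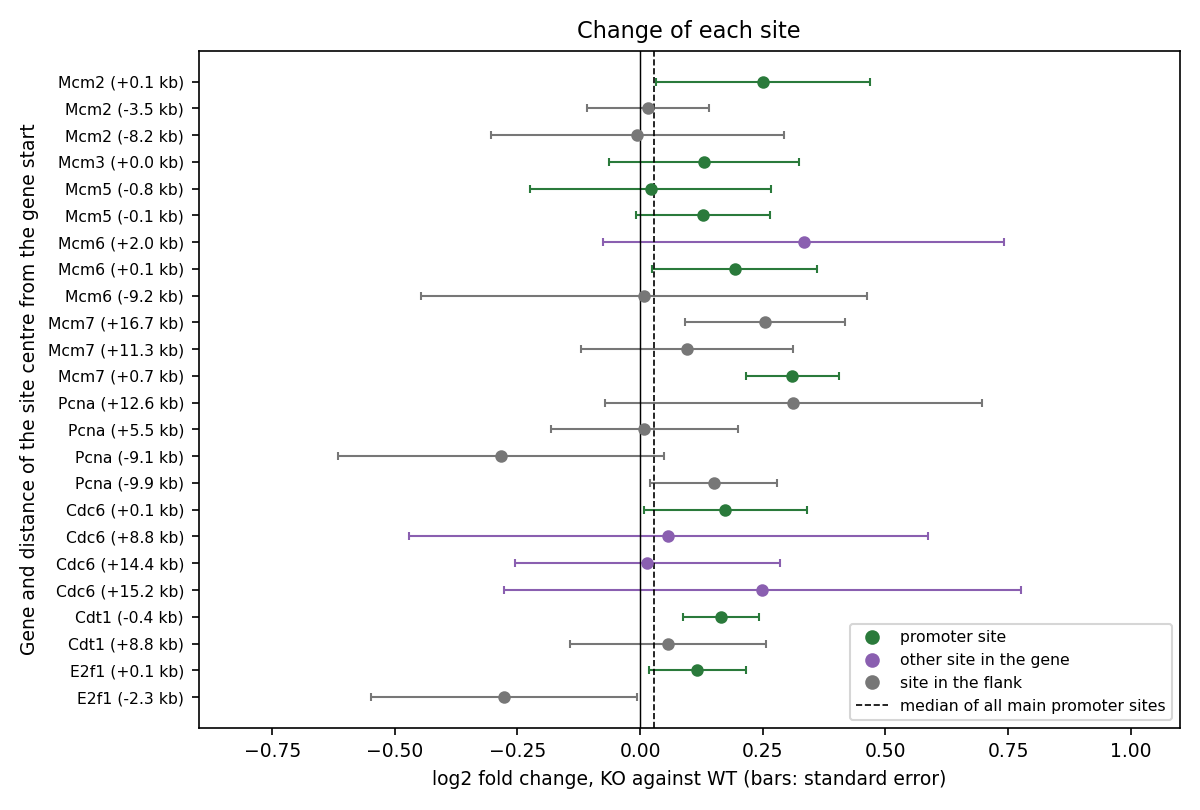
log2 fold change (KO against WT, horizontal axis) of each of the 24 sites, with bars of 1 standard error from limma, labelled by gene and distance of the site centre from the gene start in kb. All values lie between -0.28 and 0.33, and the 8 main promoter sites lie to the right of the dashed line at 0.03, the median of all main promoter sites. With quantile normalization Cdt1 and E2f1 fall below 0, but the median of all main promoter sites is then -0.07 and all 8 lie above it. Without KO replicate 2, 6 of the 8 lie above the median of all main promoter sites.

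No member site passed the rule for differential accessibility. That rule was an unadjusted limma p under 0.01 together with a change of 1 or more on the log2 scale in either direction. By it 0 of 24 sites were called, where the share over all sites was 0.373% (0.0705% higher and 0.302% lower in KO). At an unadjusted p under 0.05 there was 1, the Mcm7 promoter site, and 0 sites of the table had a limma adjusted p under 0.05. With 2 lines per genotype, an exact two-sided permutation test of a single value cannot go below p = 0.333. The p-values rest on the spread between these lines only, with the variance of each site drawn toward an intensity trend over all sites.

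Of 24 sites, 21 had a positive log2 fold change, against 50.7% of all sites. With equal library totals, or with quantile normalization, 14 of 24 were positive, and without KO replicate 2 it was 12. The median of all sites moved too, from 0.006 in the deposited scaling to -0.06 with equal totals. It was -0.0002 with quantile normalization and 0.01 without KO replicate 2. The 8 main promoters were all positive, except Cdt1 and E2f1 with quantile normalization (-0.06 each) and Mcm3 and Cdc6 without KO replicate 2 (-0.04 and -0.01), against 56.1% of all main promoter sites. Their median was 0.17, against 0.03 over all main promoter sites. Both KO lines stood above both WT lines at 4 of 8 main promoters, where 21.9% of all main promoter sites did, and at 7 of 24 sites, where 14.6% of all sites did. Both KO lines stood below both WT lines at 0 of 8 main promoters and at 2 of 24 sites, against 14.7% and 14.3%.

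Signal strength and the shallowest library moved with this direction. Among the 6080 main promoter sites at least as strong as the weakest of the 8 (Mcm2), the median log2 fold change was 0.10, 74.9% were positive, and both KO lines stood above both WT lines at 34.4%. KO replicate 2 was the highest of the 4 libraries at 7 of 8 main promoters, against 49.6% of those strong sites and 35.8% of all main promoter sites. The median deviation from the site mean at the 8 promoters was 0.22 in KO replicate 2 and -0.02 in KO replicate 1. It was -0.05 and -0.13 in WT replicates 1 and 2. The KO line that exceeded WT was therefore chiefly replicate 2. Without KO replicate 2 the median of the 8 promoters was 0.06 and 6 of 8 were positive, and without KO replicate 1 it was 0.31. With quantile normalization it was 0.04, again with 6 of 8 positive, while the median of all main promoter sites became -0.07. The median of the strong sites was -0.03 with quantile normalization and 0.06 without KO replicate 2. The part of depth and scaling in these differences was not tested.

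**Figure D4:**
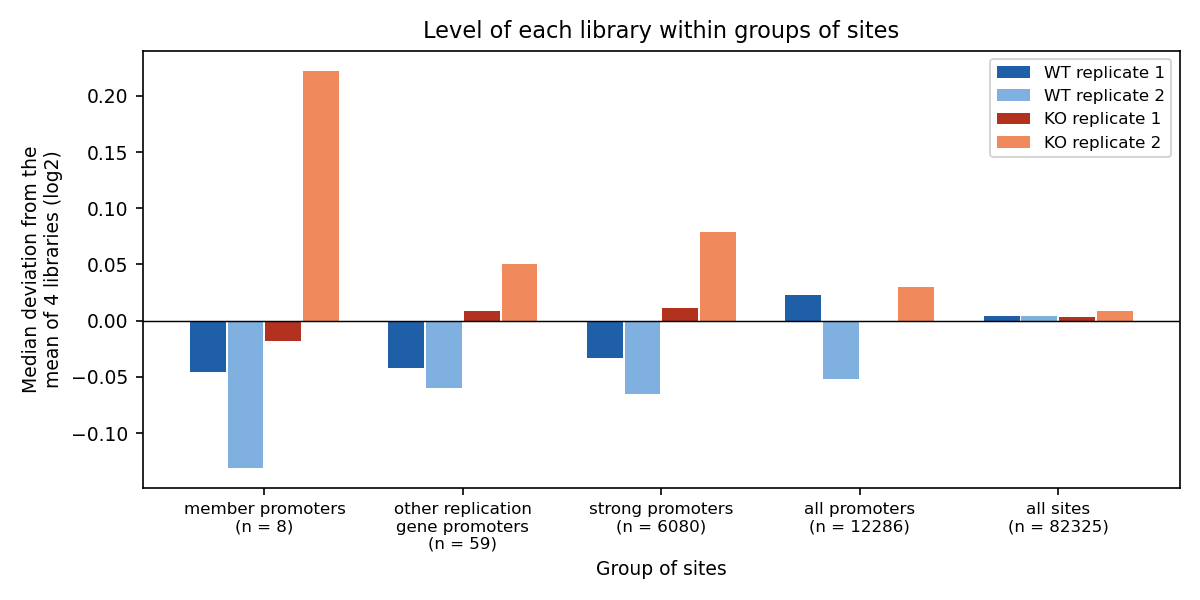
Median deviation of each library from the mean of the 4 libraries on the log2 scale (vertical axis), for 5 groups of sites whose numbers stand under the bars. Strong promoters are main promoter sites at least as strong as the weakest of the 8, and KO replicate 2 is the highest library in each group, most so in the 8 promoters (0.22).

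Medians of whole chromosomes are given only for the 7 that carry the 10 genes, and their part in the differences was not tested. With centring per chromosome the median log2 fold change of the 8 promoters was 0.157. Over sites with a mean of at least 20 normalized counts, the median log2 fold change of the 7 chromosomes that carry the 10 genes ran from -0.01 (chromosome 16) to 0.05 (chromosome 8). In the mean over 25 consecutive sites, the window with which the study defines domains of lost accessibility, the 8 promoters lay between -0.42 (Mcm3) and 0.08 (Cdc6), and 0 of 8 were under the domain cutoff of -0.58. The study listed its domains from its own fold changes in primary MEFs. Here the window and cutoff were applied to limma fold changes of imMEF sites. The surroundings of Mcm3 on chromosome 1 were thus lower in KO than those of the other 7 genes, while its own promoter had a log2 fold change of 0.13.

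The 59 other replication genes, a list by role chosen with earlier results of these data known, each had a main promoter site. Of these, 0 were called by the same rule (0.269% of all main promoter sites were), 44 were positive (29 with quantile normalization) and the median was 0.13. The 44 are 74.6% of the 59. Positive values made up 56.1% of all main promoter sites (median 0.03) and 74.9% of the 6080 strong ones (median 0.10). Both KO lines stood above both WT lines at 23 of 59 and below at 3, where the shares were 21.9% and 14.7% over all main promoter sites and 34.4% and 5.89% over the 6080 strong ones. By role, 10 of 11 origin recognition and licensing control genes, 9 of 11 helicase activation genes and 20 of 24 polymerase and fork genes were positive, with medians of 0.15, 0.13 and 0.14. Of the 13 E2F and S-phase cyclin genes 5 were positive, and their median was -0.02. The difference between these roles was not tested.

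In the deposited scaling, only Gins2, a subunit of the GINS complex that activates the MCM helicase, had an unadjusted limma p under 0.05 among the 59. It had 662 and 653 normalized counts in WT and 750 and 838 in KO, with both KO lines higher, a log2 fold change of 0.27 (SE 0.09) and an unadjusted limma p of 0.0250, which became 1 on adjustment. With quantile normalization the log2 fold change of Gins2 was 0.05 with an unadjusted p of 0.529. The unadjusted p was 0.330 without the intensity trend, 0.0645 with equal totals and 0.0568 with centring per chromosome, and with 1 library left out it was 0.0134 to 0.142, under 0.05 only without KO replicate 1. The 3 highest log2 fold changes were those of Fen1, the flap nuclease of Okazaki fragments (0.31, 371 and 357 in WT, 522 and 393 in KO), Rpa2, a subunit of the single-strand binding protein (0.30, 253 and 264 against 298 and 341), and the repressor E2f8 (0.30, 404 and 425 against 461 and 562). Fen1 rested on KO replicate 1, with a log2 fold change of 0.11 without it, 0.52 without KO replicate 2 and 0.11 with centring per chromosome. At each of the 3, both KO lines were above both WT lines, and the unadjusted limma p ran from 0.0746 to 0.110. The lowest were Wdhd1, a replisome adaptor (-0.20, with 573 and 365 in WT and 423 and 377 in KO), and the E2F dimerization partners Tfdp1 (-0.17, 117 and 127 against 110 and 107) and Tfdp2 (-0.16, 472 and 474 against 438 and 409). At Tfdp1 and Tfdp2 both KO lines were below both WT lines, and at Wdhd1 the lines overlapped (its log2 fold change was 0.13 without WT replicate 1). The unadjusted limma p was 0.216 to 0.526 for the 3. With quantile normalization the log2 fold change of Tfdp2 was -0.30 with an unadjusted limma p of 0.0393. With centring per chromosome that of E2f8 was 0.30 with an unadjusted limma p of 0.0405.

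The promoters whose profile over the 4 libraries was closest to the mean of the 8, by root mean square difference of log2 values centred on their own mean, were E2f3 (0.013), Gins4 (0.016) and Rpa1 (0.023). E2f3 had 634 and 609 in WT and 667 and 750 in KO. Gins4 had 438 and 427 in WT and 451 and 519 in KO, and Rpa1 341 and 328 against 345 and 394. In all 3, KO replicate 2 was the highest library and KO replicate 1 stood slightly above both WT lines. The 3 were picked for their likeness to the 8, so this order is no separate result.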

How the data were processed

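The data were 4 ATAC-Seq libraries of imMEFs, 2 HAT1 WT and 2 HAT1 KO. Per the study methods and the submitters' processing notes, alignment was to mm10 (BWA 0.7.12), peak calling used MACS2 2.1.0 and DESeq2 served for differential occupancy. The deposited values have the unit score here, since the authors had scaled the reads per site with 1 factor for each library and rounded the result. Columns with the authors' fold changes and p-values were not used. Read filters and the Tn5 offset are not given in the sources used here.

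Sites were placed on GENCODE vM21 genes (GRCm38, the assembly of mm10). The main promoter site of a gene was the site with the highest mean among those within 1 kb of a protein-coding TSS. Log2(value + 1) of all 82325 sites was fitted with limma 3.58.1 (R 4.3.3, intensity trend), with Benjamini-Hochberg adjustment over all sites, and the step was tested on simulated data. On that scale the change of a low site is understated. The worth of 1 read was estimated from values of 20 to 100. Python 3.11.15 was used for the rest. Alternatives were other scalings, a pseudocount of 8, a minimum mean of 20, no trend, other call and distance rules, and leaving out each library. All 10 genes were named. Of the other replication genes, those past an unadjusted p of 0.05, the 3 highest and 3 lowest fold changes and the 3 closest profiles were named. Members and lists were chosen with earlier results of these data known.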

Additional observations from a re-analysis of the deposited data

How the results depend on the processing

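Under the alternatives, 0 member sites, 0 member promoters and 0 promoters of other replication genes were called wherever a fold filter or an adjusted p was kept. In the deposited scaling, with an unadjusted p under 0.05 and no fold filter, there was 1 in each of the 3 groups. The medians of the log2 fold change were 0.122, 0.169 and 0.135. With 1 library left out they ran from 0.0065 to 0.198 for the 24 sites, from 0.0645 to 0.310 for the 8 promoters and from 0.0604 to 0.127 for the 59 others, and each was lowest without KO replicate 2. Quantile normalization gave 0.017, 0.040 and -0.00078, a change of sign for the 59, and equal totals gave 0.054, 0.101 and 0.067. The other alternatives moved no median by more than the spread between replicates. No paired analysis was possible because a single WT line and KO line (imMEF643CT and imMEF643BT) share a number in their names, which the labels do not explain, and the others share none. The unadjusted p under 0.05 at the Mcm7 and Gins2 promoters was lost with quantile normalization and without the intensity trend. With equal totals and with centring per chromosome it was kept at Mcm7 and lost at Gins2.

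Single sites had log2 fold changes near 0, and none of the values that changed sign passed the call rule. The lists that follow cover only the 24 member sites and the named promoters of other replication genes. Among all 59 promoters of other replication genes, 44 were positive as reported, 36 with equal totals and 29 with quantile normalization. With 1 library left out, 39 to 49 of the 59 were positive. Distances are from the gene start to the site centre. With equal totals the sign turned at Mcm2 3.5 kb upstream (-0.052), Mcm5 0.8 kb upstream (-0.047), Mcm6 9.2 kb upstream (-0.058), Pcna 5.5 kb downstream (-0.060), Cdc6 8.8 kb downstream (-0.0081), Cdc6 14.4 kb downstream (-0.053) and Cdt1 8.8 kb downstream (-0.012). With quantile normalization the sign turned at Mcm2 3.5 kb upstream (-0.12), Mcm5 0.8 kb upstream (-0.038), Pcna 5.5 kb downstream (-0.084), Cdc6 14.4 kb downstream (-0.012), the Cdt1 promoter (-0.060), Cdt1 8.8 kb downstream (-0.046), the E2f1 promoter (-0.062) and the E2f3 promoter (-0.0035). With centring per chromosome the sign turned at Mcm2 8.2 kb upstream (0.019), Mcm5 0.8 kb upstream (-0.011), Mcm6 9.2 kb upstream (-0.0046) and the Wdhd1 promoter (0.015). With 1 library left out in turn, the sign turned at 14 of the sites covered here, named with their lowest and highest values. The first were at Mcm2 3.5 kb upstream (-0.014 to 0.047), Mcm2 8.2 kb upstream (-0.19 to 0.18), the Mcm3 promoter (-0.039 to 0.30), Mcm5 0.8 kb upstream (-0.082 to 0.12), Mcm6 2.0 kb downstream (-0.035 to 0.70), Mcm6 9.2 kb upstream (-0.15 to 0.16) and Mcm7 11.3 kb downstream (-0.070 to 0.26). The others were at Pcna 5.5 kb downstream (-0.13 to 0.15), the Cdc6 promoter (-0.0070 to 0.35), Cdc6 8.8 kb downstream (-0.50 to 0.62), Cdc6 14.4 kb downstream (-0.046 to 0.075), Cdc6 15.2 kb downstream (-0.47 to 0.97), Cdt1 8.8 kb downstream (-0.15 to 0.26) and the Wdhd1 promoter (-0.52 to 0.13). The cause was not tested. Depth limits the sites with few reads, where 1 read in KO replicate 2 is worth 1.50 normalized counts.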
